A study of Homo sapiens with 2 samples.

Results

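Receptor genes of blood cytokines were examined for acetylation of lysine 27 of histone H3 (H3K27ac), a mark carried by active promoters and enhancers. They are CSF2RB, CSF1R, CSF3R, FLT3, IL6ST, IL6R, IL4R, IL10RA and IFNGR1, taken as a list of 9 of the 19126 protein-coding genes on the 22 autosomes. The regions counted were all deposited peaks inside a gene record or within 50 kb of it (hg38). These were 23 of 19671 peaks in ERG cells and 10 of 9161 peaks in Vector cells. The series compared cultures of F36P, a long-established line of human erythroid leukaemia, after transduction with MSCV-PIG-AM-ERG (labelled ERG overexpression) and after transduction with MSCV-PIG, the vector alone (labelled WT). They are called ERG cells and Vector cells here. ERG is a transcription factor of the ETS family, and the study asks how it inhibits erythroid differentiation. Both cultures were kept in puromycin at 1 µg/ml for 4 days, and each gave 1 chromatin immunoprecipitation library. The labels do not say what AM stands for or how far the transduced cultures were clonal.

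Cytokine receptors pass growth, survival and differentiation signals to blood cells. Receptors of the CSF2RB, CSF3R, IL6ST, IL6R, IL4R, IL10RA and IFNGR1 kind signal through Janus kinases and STAT factors, whereas CSF1R and FLT3 are receptor tyrosine kinases. CSF2RB is the signalling chain shared by the receptors of granulocyte-macrophage colony-stimulating factor (GM-CSF), interleukin 3 and interleukin 5. CSF1R is the macrophage colony-stimulating factor receptor, CSF3R the granulocyte colony-stimulating factor receptor, and FLT3 the receptor of a growth factor of early progenitors. IL6ST (gp130) is the signal-transducing chain of the interleukin 6 family and IL6R its ligand-binding partner.

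The start regions show which of these genes carry CpG-rich promoters and which do not. RefSeq (GRCh38.p14, whose chromosome coordinates are those of hg38) listed 11 start windows for 8 of the 9 genes, and CSF2RB had no entry. The 150 bases before the start are printed 5′ to 3′ on the strand of the gene for 3 genes with a peak over the start in both libraries (IL4R, IL6ST and IFNGR1), for CSF3R, which had a peak beside it in ERG cells alone, and for CSF1R and FLT3, which had none. Capitals mark matches, on either strand, to the letters GGAAG (the ETS core) or TGTGGT (the RUNX core).
IL4R, chr16:27313824-27313973, plus strand: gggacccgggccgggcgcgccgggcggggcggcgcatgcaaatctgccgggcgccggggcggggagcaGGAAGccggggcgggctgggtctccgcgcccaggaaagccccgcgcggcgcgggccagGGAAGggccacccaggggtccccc
IL6ST, chr5:55994964-55995113, minus strand: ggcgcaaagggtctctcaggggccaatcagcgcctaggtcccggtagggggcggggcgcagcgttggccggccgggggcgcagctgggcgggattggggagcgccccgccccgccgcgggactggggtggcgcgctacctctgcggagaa
IFNGR1 outer start, chr6:137219386-137219535, minus strand: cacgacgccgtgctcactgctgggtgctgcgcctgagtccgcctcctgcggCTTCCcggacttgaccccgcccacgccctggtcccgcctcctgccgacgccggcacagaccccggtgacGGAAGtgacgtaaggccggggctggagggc
CSF3R inner start, chr1:36482914-36483063, minus strand: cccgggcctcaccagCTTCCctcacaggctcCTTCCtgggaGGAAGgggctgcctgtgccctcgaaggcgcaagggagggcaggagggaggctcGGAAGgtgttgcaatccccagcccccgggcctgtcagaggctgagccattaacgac
CSF1R inner start, chr5:150086555-150086704, minus strand: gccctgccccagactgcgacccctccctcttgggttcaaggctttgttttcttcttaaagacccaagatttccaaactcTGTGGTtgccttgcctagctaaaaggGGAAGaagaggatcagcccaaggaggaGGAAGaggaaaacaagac
FLT3, chr13:28100577-28100726, minus strand: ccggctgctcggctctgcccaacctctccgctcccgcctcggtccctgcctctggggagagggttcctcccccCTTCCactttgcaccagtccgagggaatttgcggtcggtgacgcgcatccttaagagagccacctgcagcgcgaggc

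In these stretches IL4R holds 21 CpG dinucleotides, IL6ST 18 and IFNGR1 17, whereas CSF3R holds 6 and CSF1R 1, against a median of 11 over the same stretch of all 21156 start windows of autosomal coding genes. FLT3, with 12, lay just above that median and had no peak over its start. Over the full windows of 300 bases (250 before and 50 after the start), the CpG count was 42 at IL4R, 36 at IL6ST, and 29 and 25 at the inner and outer starts of IFNGR1. It was 34 at FLT3 and 27 at IL6R, and from 3 to 9 at the starts of CSF1R, CSF3R and IL10RA. Among all windows the median was 29 CpG where a peak of both libraries overlapped (4342 windows) and 12 where neither library had one (13085 windows). FLT3 and IL6R thus had no peak over their starts in either library, with CpG counts at or above the upper quartile of 27 for windows without a peak.

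**Figure D1:**
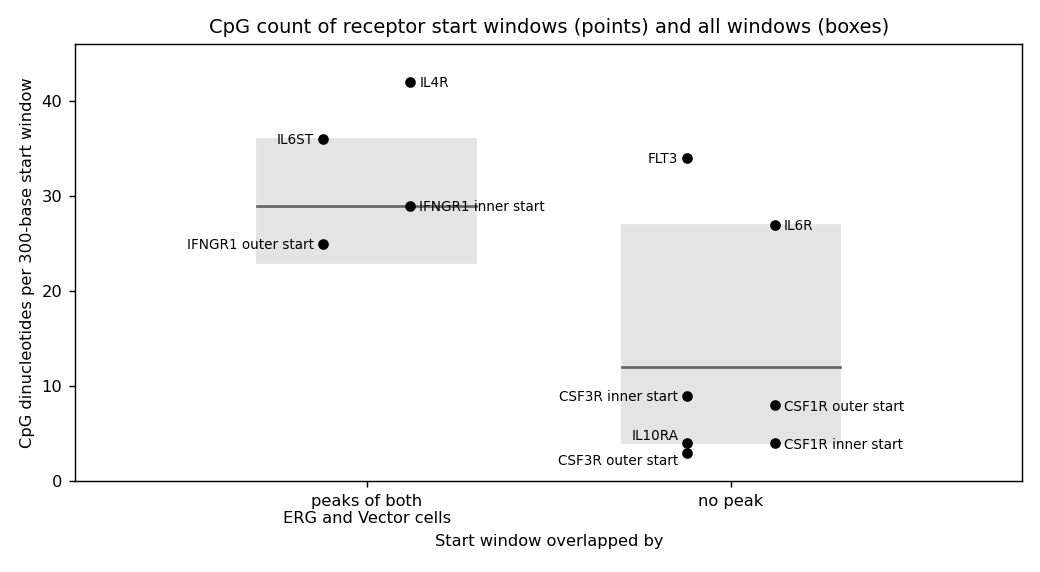
CpG dinucleotides per 300-base start window (y axis) for the 11 receptor start windows (points), by whether a peak of both libraries or of neither overlapped the window. Boxes span the quartiles of all autosomal coding windows of that class and the line is their median (29 with peaks of both libraries, 12 with none); FLT3 (34) and IL6R (27) stand at or above the upper quartile of windows without a peak.

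The ETS core GGAAG (both strands) matched 8 of the 11 receptor windows of 300 bases and 73.6% of all such windows, so the receptor windows stood close to the share of all. It matched 5 times in the inner start window of CSF3R and not at all in that of IL6ST, though IL6ST had a start peak in both libraries. The RUNX core matched 2 receptor windows, the inner one of CSF1R and the outer one of CSF3R, against 11.2% of all windows. The GATA core AGATAA matched 1, at IL10RA, against 7.89%. The longer letters GAGGAAGT, which contain the ETS core and resemble the site of the myeloid ETS factor PU.1, matched 0 of 11, against 2.60%. A match says only that the letters are there.

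The ERG list was longer and its recovered background was higher, while the read totals of the libraries are not given in the sources used here. Peaks covered 15.0 Mb in ERG cells and 5.30 Mb in Vector cells. The genome-wide background, taken as the lowest background recovered at any listed peak, was 2.31 against 1.60 fragments, a ratio of 1.44. Fragments are the reads stacked at a peak's summit, recovered from the authors' fold and p-value. The weakest listed summit held 9 fragments in the ERG list and 8 in the Vector list. With 1 library per group there was no spread between samples and no test, all intervals cover counting error only, and each difference is one between these 2 libraries. Of 10 erythroid marker genes, 8 had a start-site peak in both libraries and EPB42 had one in ERG cells alone. Of 6 neutrophil and monocyte markers, 0 had one in both and MPO, LYZ and ITGAM had one in ERG cells alone. Of 4 lymphoid markers CD79A had one in ERG cells alone, and the 3 neuronal and 3 fibroblast markers had none. Over all autosomal coding genes 31.7% had one in both and 15.4% in ERG cells alone.

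The receptor genes fell into 3 kinds by the peak at their start. A start-site peak, within 1 kb of a listed start or, for CSF2RB, of an end of the gene record, was present in both libraries at 4 genes: CSF2RB, IL6ST, IL4R and IFNGR1. This kind held 31.7% of all autosomal coding genes. CSF3R was the single member with a start-site peak in ERG cells alone, a kind that held 15.4% of all genes, and 0 members had one in Vector cells alone (0.34% of all genes). The other 4, CSF1R, FLT3, IL6R and IL10RA, had none, as did 52.6% of all genes. Of the 5 members without a Vector-cell start peak ERG cells had one at 1, which is 20% (exact 95% interval 0.505 to 71.6) against 22.6% of all 12996 such genes. The shares of these 9 genes were thus near those of all genes. Any ERG-cell peak inside or within 50 kb was found at 7 of the 9, beside 74.9% of all genes, and any Vector-cell peak at 6, beside 59.5%.

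Around the genes ERG cells had peaks that Vector cells lacked, in the proportion seen near coding genes at large. Of the 23 ERG-cell peaks 10 overlapped a Vector-cell peak by at least 1 bp and 13 did not, 56.5% (34.5 to 76.8), against a background of 56.7% of the 15681 ERG-cell peaks within 50 kb of any autosomal coding gene. With the ERG list limited to its highest-scoring peaks, as many as in the Vector list, 3 of 12 were unshared, which is 25%, against 26.5% of the 7659 such peaks near coding genes. Each of the 10 Vector-cell peaks lay wholly within an ERG-cell peak, as did the Vector-cell peak in 77.0% of all 7862 one-to-one pairs on autosomes. Thus 0 of 10 were unshared (upper limit of the interval 30.8%), against 7.3% of the 7559 Vector-cell peaks near coding genes. Of the 13 unshared peaks 12 lay away from a receptor start, at 6 genes. A total of 7 ERG-cell peaks overlapped a receptor gene record, 5 of them at its start, and 16 lay outside. For 16 of the 23 the nearest coding gene was the receptor gene itself, and 3 lay at the start of another coding gene (MRPS15, PAN3 and NSMCE1).

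**Figure D2:**
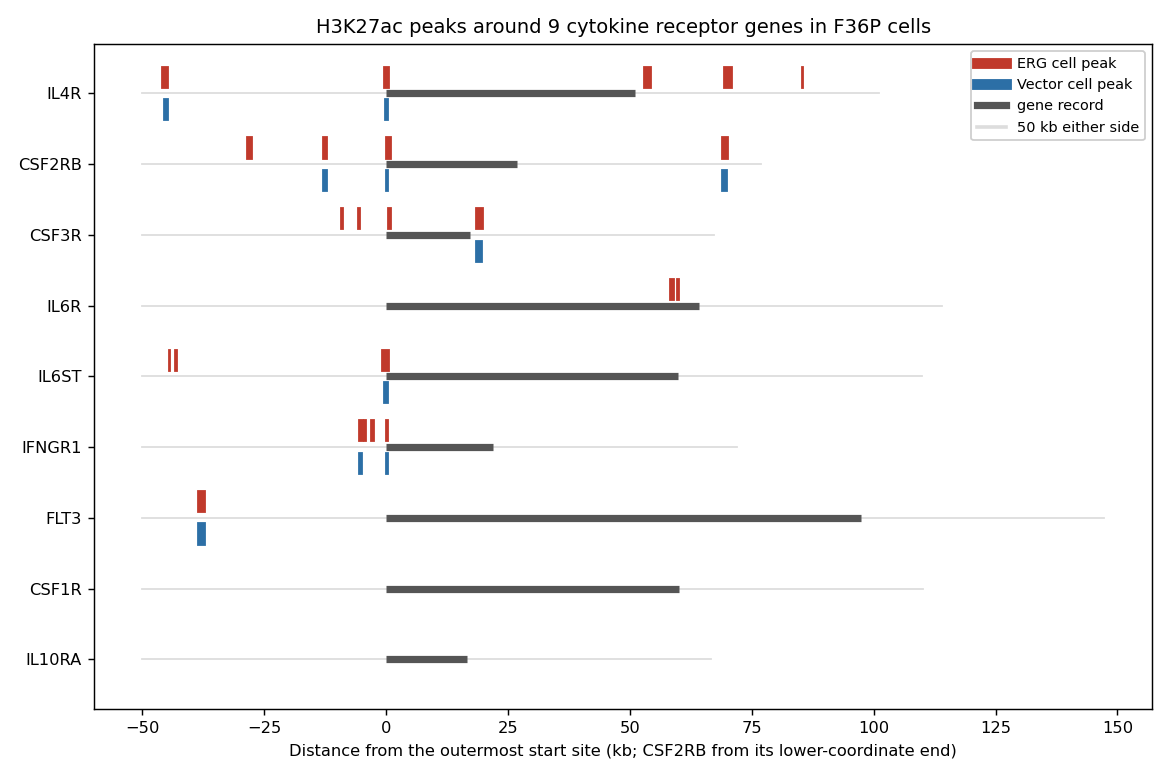
Peaks of ERG cells (red, above each line) and Vector cells (blue, below) around the 9 receptor genes, by distance in kb from the outermost listed start site (for CSF2RB from the lower-coordinate end of its record, as no strand was listed), with the gene record in dark grey and 50 kb either side in light grey. Each blue peak lies under a red one, and CSF1R and IL10RA have no peak of either library.

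IL4R, the receptor chain that binds interleukin 4 and also serves interleukin 13, had the most ERG-cell peaks of the 9 genes, 5. It had 2 in Vector cells. The gene lies on chromosome 16 from 27313756 to 27364778. ERG-cell peaks covered 5427 bp of its surroundings and Vector-cell peaks 1394 bp, a difference (ERG minus Vector) of 4033 bp that was greater than that of 95.9% of autosomal coding genes. Of that difference 3212 bp lay in 3 ERG-cell peaks past the far end of the gene, which also fall within 50 kb of IL21R, the interleukin 21 receptor gene. Without them the difference was 821 bp, less than at 5 of the other members. At the start, whose sequence is printed above, the ERG-cell peak ran from 27313618 to 27314498 with 57 fragments at its summit, and the Vector-cell peak from 27313743 to 27314352 with 24. The ratio of 2.38 had an interval of 1.45 to 4.00. Beyond the far end of the gene ERG cells had 3 peaks and Vector cells none. The first, at 27366959 to 27368233 and 2181 bp past the record, had IL4R as its nearest coding gene and was 1275 bp wide with 64 fragments, the strongest unshared peak near any of the 9 genes. The second, at 27383230 to 27384833, was the widest of all member peaks at 1604 bp, with 34 fragments. The third, at 27399227 to 27399559, held 23 fragments and lay 2615 bp before the record of IL21R, which was also the nearest coding gene of the second. Peak positions alone do not assign any of the 3 to one gene. Scaled to Vector cells by the ratio of genome backgrounds they would hold 44, 24 and 16 fragments, and each would still pass the least significant p-value of the Vector list. The fifth ERG-cell peak, with 72 fragments against 22 in Vector cells, lay at the start of NSMCE1, a gene of a DNA repair complex.

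CSF2RB had the most peaks in Vector cells, 3, all of which were shared. The gene lies on chromosome 22 from 36913628 to 36940439. A peak just inside its lower-coordinate end ran from 36913652 to 36914706 in ERG cells and from 36913681 to 36914104 in Vector cells, with summits 3 bp apart. It held 75 fragments against 37, a ratio of 2.03 (1.35 to 3.09), and was 1055 against 424 bp wide. The 2 other shared peaks lay outside the gene. One, at 36900593 to 36901445 and 12183 bp from the record, held 79 against 41 fragments. The other, at 36982495 to 36983811 and 42056 bp beyond the opposite end, held 83 against 56 fragments, and its ratio of 1.48 (1.04 to 2.12) was the lowest of the 10 shared pairs. Its nearest coding gene was CIMIP4, 7314 bp away. The fourth ERG-cell peak, at 36885171 to 36886098 with 35 fragments, had no Vector-cell counterpart. It lay 27530 bp from CSF2RB and 7156 bp from NCF4, which encodes a subunit of the phagocyte oxidase. Covered length was 4153 bp in ERG cells and 2337 bp in Vector cells. Of its partner chains, IL5RA had no start-site peak in either library and nearly equal covered lengths, 1296 bp in ERG cells and 1276 bp in Vector cells. CSF2RA and IL3RA lie on the sex chromosomes and were not analysed here.

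CSF3R, on chromosome 1 from 36466043 to 36483314, had peaks of its own in ERG cells alone. Of its 4 ERG-cell peaks, 3 surrounded the start and none of these had a Vector-cell counterpart. The peak at 36482339 to 36482856, inside the gene and 57 bp past the inner start, held 32 fragments over a local background of 12.6, and 8.57% of the ERG list had a lower score. It was absent once the ERG list was limited to its upper 50% by score or to the length of the Vector list. The peaks at 36488734 to 36489138 and 36492070 to 36492592, 5420 and 8756 bp upstream of the gene, held 39 and 51 fragments. Scaled by the ratio of genome backgrounds these would hold 22, 27 and 35 fragments, and all 3 would pass the least significant p-value of the Vector list. Scaled by the higher ratio of shared peaks, 2.09, only the one of 51 fragments would pass it. The fourth ERG-cell peak, with 93 fragments against 39, lay at the start of MRPS15, a mitochondrial ribosomal protein gene.

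IL6ST and IL6R, whose products form one receptor complex, differed at their starts. IL6ST, on chromosome 5 from 55935095 to 55994963, had a start peak in both libraries, at 55994394 to 55995777 in ERG cells and 55994651 to 55995444 in Vector cells. It held 33 against 18 fragments, a ratio of 1.83 (1.00 to 3.46), the lowest ERG-cell summit of the 10 shared pairs. The divergent transcript IL6ST-DT starts in the same peak, so the mark cannot be assigned to either one. A further 2 ERG-cell peaks at 42900 and 44237 bp upstream held 18 and 15 fragments, and 18.3% and 3.87% of the ERG list had a lower score. IL6R, on chromosome 1 from 154405343 to 154469450, had no peak within 1 kb of its start in either library. ERG cells had 2 peaks deep inside the gene, at 154463482 to 154464406 (925 bp wide) with 30 fragments and at 154465021 to 154465341 (321 bp wide) with 23, and Vector cells had none within 50 kb. Only the first would pass the least significant p-value of the Vector list after scaling by genome backgrounds.

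IFNGR1, the ligand-binding chain of the interferon gamma receptor, lies on chromosome 6 from 137197484 to 137219385 and had a cluster of 4 ERG-cell peaks within 5911 bp. The start peak ran from 137219051 to 137219403 in ERG cells with 50 fragments, and from 137219063 to 137219403 in Vector cells with 27, a ratio of 1.85 (1.14 to 3.08). The authors' fold at this peak was 2.74 in ERG cells and 4.66 in Vector cells, the opposite order to the fragments. The local background there was 17.6 against 5.01 fragments, 7.59 and 3.12 times the genome background of each library. With each list limited to its upper 50% by score, this start peak was listed in Vector cells alone. The other 3 ERG-cell peaks lay 2508 to 4834 bp upstream of the gene, with 44, 57 and 67 fragments. The farthest of these, at 137224219 to 137224961, was shared, with 67 against 19 fragments. Its ratio of 3.53 (2.09 to 6.22) was the highest of the 10 shared pairs. The local background at this distal pair was 17.1 against 4.48 fragments, a ratio of 3.81, and the authors' fold was nearly equal, 3.76 against 3.65. At IL6ST, as at the IFNGR1 start peak, fold and fragments ran in opposite order, with a fold of 5.25 against 6.03. The IL6ST and IFNGR1 start peaks were the 2 of 10 pairs where the fold was lower in ERG cells.

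The tyrosine kinase receptors and IL10RA had no peak of their own. FLT3, on chromosome 13 from 28003274 to 28100576, had no peak inside it. A single shared peak within 50 kb, 37213 bp upstream at 28137789 to 28139242 in ERG cells, lay at the start of PAN3, a gene of mRNA deadenylation, and of its antisense transcript PAN3-AS1. It held 109 against 46 fragments and was nearly the same width in the libraries, 1454 and 1416 bp, so that the covered length near FLT3 differed by 38 bp. CSF1R, on chromosome 5 from 150053295 to 150113365, and IL10RA, the ligand-binding chain of the interleukin 10 receptor, on chromosome 11 from 117986394 to 118003037, had 0 peaks inside or within 50 kb in both libraries. Over all genes 24.8% had none in either. PDGFRB, the platelet-derived growth factor receptor gene next to CSF1R, had none either. A missing peak means only that no site passed the authors' threshold in that library.

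**Figure D3:**
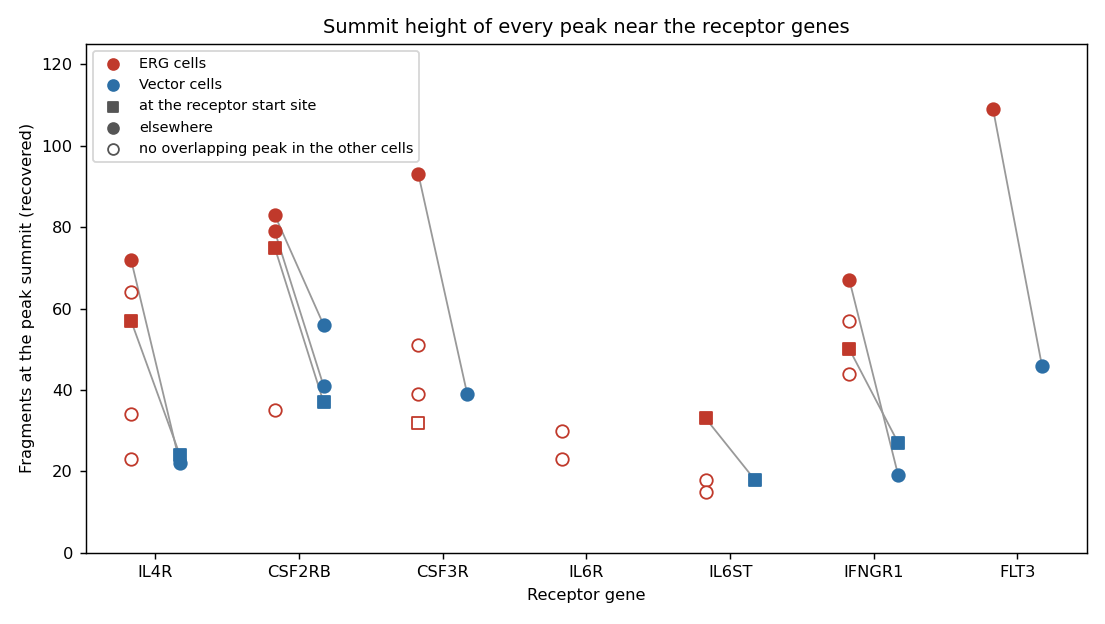
Recovered fragments at the summit (y axis) of each peak near the 7 receptor genes with any peak, in ERG cells (red, left) and Vector cells (blue, right). Squares are peaks at the receptor start, circles are others, open symbols have no overlapping peak in the other library, and lines join the 10 shared pairs, all of which hold more fragments in ERG cells.

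Among shared peaks the receptor loci followed the libraries as a whole. Summed over the 10 pairs, the summits held 718 fragments in ERG cells and 329 in Vector cells, a ratio of 2.18 (1.91 to 2.49). Over all 7862 one-to-one pairs on autosomes the summed ratio was 2.12 and the median 2.09, with the middle 50% of pairs from 1.70 to 2.53. The counting interval of 9 of the 10 receptor pairs held this median. That of the distal IFNGR1 pair, where the ratio of local backgrounds was 3.81, began just above it. After division by the ratio of genome backgrounds the summed receptor ratio was 1.51 (1.32 to 1.73), and that of all pairs 1.47. Shared ERG-cell peaks were a median 1.32 times as wide as their Vector-cell counterparts at the receptor genes and 1.55 times over all pairs.

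The unshared ERG-cell peaks were the weaker ones. They held 15 to 64 fragments with a median of 34 and a median width of 518 bp, whereas the shared ERG-cell peaks held 33 to 109 with a median of 73.5 and a median width of 1186 bp. All ERG-cell peaks near coding genes showed the same contrast, at 29 against 61 fragments. Of the 6 receptor peaks with at least 50 and fewer than 70 fragments 3 had no Vector-cell counterpart, one each at CSF3R, IFNGR1 and IL4R, beside 37.0% of all 2611 such peaks near coding genes. Scaled by the ratio of genome backgrounds, 11 of the 13 unshared receptor peaks would pass the least significant p-value of the Vector list, and 8 scaled by the ratio of shared peaks. For all 8898 unshared peaks near coding genes these shares were 92.1% and 72.9%. Whether depth plays a part in the remaining differences was not tested.

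Covered length put the 9 genes in the order IL4R, CSF2RB, CSF3R, IL6R, IL6ST, IFNGR1, FLT3, and CSF1R and IL10RA with no difference. The differences (ERG minus Vector) were 4033 bp at IL4R (821 bp without the 3 peaks that also lie within 50 kb of IL21R, which would place it after IFNGR1), 1816 bp at CSF2RB and 1662 bp at CSF3R. IL6R (1246 bp, with 1246 bp covered in ERG cells and 0 in Vector cells), IL6ST (1220 bp, 2014 against 794 bp) and IFNGR1 (1210 bp, 2040 against 830 bp) were nearly equal. The median over the 9 genes was 1220 bp, and over all autosomal coding genes 831 bp. Length was greater in ERG cells at 7 of 9 genes, beside 73.8% of all genes, and in Vector cells at 0, beside 1.44%. The other 2 members had no peak in either library and could not differ, as was so for 24.8% of all genes.

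**Figure D4:**
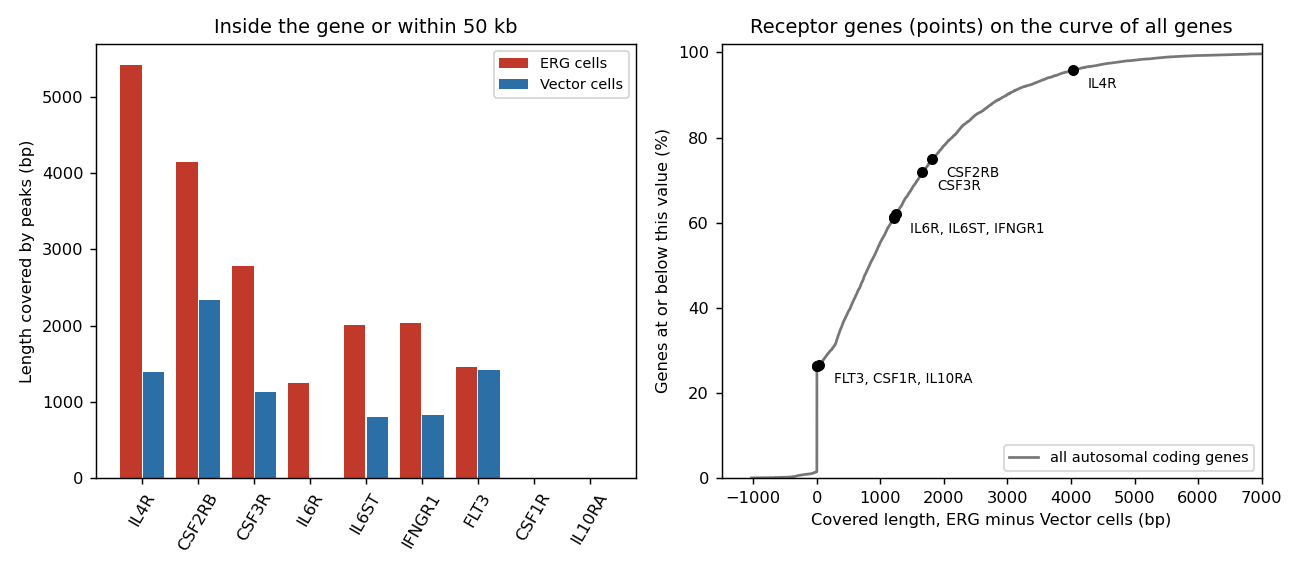
Left, length covered by peaks (bp) inside each receptor gene or within 50 kb, in ERG cells (red) and Vector cells (blue). Right, the receptor genes (points) on the cumulative curve of the difference, ERG minus Vector cells (bp), for all autosomal coding genes; IL4R, at 4033 bp, of which 3212 bp also lie within 50 kb of IL21R, stands above 95.9% of genes, and the others spread along the curve.

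Other cytokine receptor genes and the kinases and STAT factors behind them were counted in the same way. Of 44 other receptor genes 10 had a start-site peak in both, 3 had one in ERG cells alone (IL1RAP, TGFBR1 and IFNGR2, the second chain of the interferon gamma receptor) and 31 in neither. As shares these are 22.7%, 6.82% and 70.5%, beside 31.7%, 15.4% and 52.6% of all genes. Among those with the largest difference in covered length were IL1RAP, the shared chain of the interleukin 1 family receptors (6239 against 746 bp), IL27RA (5960 against 1970 bp), TNFRSF1A (5488 against 2215 bp) and IL21R (3212 against 0 bp, all 3 of its peaks being those beyond IL4R). TNFRSF1B was the single gene of the list with a greater length in Vector cells, at 2287 bp in ERG cells and 2420 bp in Vector cells. KIT, the stem cell factor receptor gene, had no peak of either library, while EPOR, the erythropoietin receptor gene, had a start-site peak in both. The median difference of the list was 771.5 bp, beside 831 bp over all genes.

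Of 30 Janus kinase, STAT, SOCS and related signalling genes 20 had a start-site peak in both, 7 had one in ERG cells alone and 3, JAK3, STAT4 and SOCS7, in neither, which is 66.7%, 23.3% and 10% beside 31.7%, 15.4% and 52.6% of all genes. Peaks covered more of the surroundings in ERG cells at all 30, beside 73.8% of all genes, with a median difference of 1696 bp beside 831 bp. All 30 had an ERG-cell peak inside or within 50 kb, whereas 24.8% of all genes had no peak in either library and could not differ. Over all autosomal coding genes, length was greater in ERG cells at 14107 and in Vector cells at only 276. The 5 largest differences were at STAT3 (9787 against 4166 bp), STAT5B (9454 against 4093 bp), the phosphatase gene PTPN6 (8428 against 3373 bp), CISH, a feedback inhibitor of cytokine signalling (5912 against 1113 bp), and the adaptor gene SHC1 (6279 against 1758 bp). STAT3, STAT5A and STAT5B are neighbours and share peaks. STAT6, which acts downstream of IL4R, had a start-site peak in ERG cells alone.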

How the data were processed

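H3K27ac was measured in 2 libraries of F36P cells, 1 per group. Per the submitters' processing notes, Bowtie2, MACS2, deepTools and hg38 were used, and no settings are named there. The authors deposited a list of peaks for each library, each with a score, a fold over the local background (a ratio), a −log10 p-value, a −log10 q-value and a summit position. The lowest deposited −log10 q-value was 1.31 and 1.32 in the ERG and Vector lists, a q-value threshold of 0.05. Use of an input library was not stated.

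Fragments k and background b were recovered from fold = (k + 1)/(b + 1) and the Poisson tail above k, within a relative error of 0.0001, for 99.9% of peaks in each list. The calculation was tested on simulated data made with the same formulas. The lowest b in each list stood for the genome background of that library, which was not measured directly. Genes came from RefSeq (GRCh38.p14). Start sites were listed for 15101 of 19126 autosomal coding genes, and both record ends stood in for the others, CSF2RB among them. Exon positions were not used. Overlap of at least 1 bp counted as shared. Intervals are exact 95% binomial or conditional ones and cover counting error only. Since each group has 1 library, no statistical test between groups was possible. Named genes were the 9 members, the genes whose record or start a member peak overlaps, and the 5 largest and most negative differences of the receptor list and 5 largest of the signalling list, with a few genes of these lists not reported here. Other genes named (neighbours of the members, IL5RA, KIT, EPOR, STAT6, marker genes and list genes with a start-site peak in ERG cells alone or in neither library) were chosen after their values were seen. The members and lists were chosen with earlier results of these data known. Python 3.11.15, scipy 1.17.1 and pandas 2.3.3 were used.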

Additional observations from a re-analysis of the deposited data

How the results depend on the processing

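Of 47 comparisons of a reported value with an alternative, 32 stayed within 1.5 times the reported count or within the counting interval and 15 moved outside. Reversals of direction were not scored. Some of the 32 could not move, such as the number of Vector-cell peaks where only the ERG list was altered. With a 10 kb window the ERG-cell peaks numbered 14, the Vector-cell peaks 6 and the unshared ERG-cell peaks 8, and with a 100 kb window 37, 16 and 22. With each list limited to its 50% of highest score, 12 ERG-cell peaks were left, 6 of them unshared. With the ERG list limited to the number of Vector-cell peaks these were 12 and 3. Under both of these the start-site peaks in ERG cells alone numbered 0, the CSF3R one being lost, and IFNGR1 counted as Vector cells alone. Under the limited list IFNGR1 also had the greater covered length in Vector cells. Counting only peaks whose nearest coding gene is the receptor gene left 6 Vector-cell peaks. Scaling by the median ratio of all shared pairs in place of the genome backgrounds gave a summed ratio of 1.04. Thinning the ERG list to the Vector background left 21 of the 23 peaks and 11 of the 13 unshared ones. Added after seeing the data, leaving out peaks at the starts of other coding genes left 20 ERG-cell and 7 Vector-cell peaks and FLT3 with none, and leaving out the 3 unshared peaks past IL4R left a difference of 821 bp there. No paired analysis was possible because each group has 1 library. Differences between the libraries cannot be told apart from differences between 2 preparations of one cell line.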
